A study of Mus musculus with 12 samples.

Results

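Cortex was set against subcortex within newborn mice that lacked Reck in vascular cells (vKO), to describe which of the expression differences between the regions of the normal brain were kept, which were lost and which were new. The vKO mice carried the alleles Reck flex2/Δex1 together with Tie2Cre, and the reference mice were wild type (WT). Tie2Cre drives recombination in endothelial cells and also in lineages of blood cells. Both were of mixed strain and taken at P0, the day of birth, and each of the 4 groups (WT cortex, WT subcortex, vKO cortex, vKO subcortex) had 3 libraries of total RNA from dissected, frozen tissue. The labels do not say whether a library is 1 animal, or whether cortex and subcortex of the same replicate number came from 1 brain.

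For each gene the deposited tables give 1 FPKM value (fragments scaled to transcript length and to library size) in each group. No replicate spread, test or depth can therefore be given for any regional difference described here. The 2 tissues were normalised in separate tables by the authors, and every level set across them is a description. Of 23977 gene symbols found once in both tables, 14068 had an FPKM of at least 1 in vKO cortex or vKO subcortex and are the genes described here. At the edge of this limit, Gpr126 (highest vKO value 1.00025 FPKM) and Stra6 (1.00056 FPKM) were included, and Gbp9 (0.999755 FPKM) and Pi15 (0.999883 FPKM) were not. The median ratio of cortex to subcortex, 0.977 in vKO and 0.958 in WT, was divided out of the cortex values. The regional ratio R is then log2((cortex FPKM + 1)/(subcortex FPKM + 1)). It is positive where a gene is higher in cortex, a size of 1 is a 2-fold difference, and adding 1 makes it understate differences of genes with low values.

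Regions of the vertebrate brain are laid out in the embryo by transcription factors that are switched on in separate territories and stay on in the neurons born there. EMX1, TBR1 and FEZF2 mark the excitatory neurons and progenitors of the cortex. The IRX and engrailed factors and some of the PAX factors mark the midbrain and hindbrain, and the Hox genes the hindbrain behind its first segment. RECK is a membrane protein that, with GPR124, lets endothelial cells of the brain read WNT7 signals from neural cells, and that signal drives the growth of brain capillaries and the blood-brain barrier. Reck itself (chromosome 4, 43875530 to 43944806, mm10) stood at 2.91 FPKM in WT cortex, 2.37 in WT subcortex, 3.23 in vKO cortex and 3.49 in vKO subcortex. Its R was 0.26 in WT and -0.06 in vKO, and an FPKM of the whole gene in whole tissue does not check the deletion.

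In vKO, 366 of the 14068 genes were at least 2-fold higher in cortex (2.60%) and 687 were at least 2-fold higher in subcortex (4.88%). The same steps in WT gave 463 genes (3.29%) and 557 genes (3.96%) of 14069. Over the 14390 genes that reached 1 FPKM in any group, 197 were higher in cortex in both genotypes, which is 53.8% of the vKO list and 42.5% of the WT list. A further 379 were higher in subcortex in both, which is 55.2% of the vKO list and 68.0% of the WT list. These 576 genes are called kept. Where the authors' own test of vKO against WT within a tissue is quoted, its share over all genes is the measure to read it by. Among vKO genes tested in the authors' deposited cortex table, 8.25% had risen and 11.2% had fallen (q under 0.05), and among those tested in subcortex 0.456% and 0.228%. Over the 14068 genes, R in vKO was above R in WT in 6630 and below it in 7438, and counts of that kind in a list are to be read beside these. The WT and the vKO ratios share no library.

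A difference is called lost where it was at least 2-fold in WT and under 1.5-fold in the same direction in vKO. It is called new where it was at least 2-fold in vKO and under 1.5-fold in the same direction in WT. A gene that stood 1.5-fold to 2-fold the other way still counts. By that rule 150 genes lost a higher level in cortex and 72 a higher level in subcortex, while 119 were newly higher in cortex and 117 newly higher in subcortex. Between these, 87 cortical and 91 subcortical differences were weakened to between 1.5-fold and 2-fold, and 35 cortical and 162 subcortical ones had grown from that range to past 2-fold. The remaining 44 genes were past 2-fold in opposite directions. Kept genes were mostly protein-coding (515 of 576), while 140 of the 236 new, 126 of the 222 lost and 5 of the 44 opposite genes were. Across the 14390 genes, R in vKO and R in WT had a Pearson correlation of 0.43 and a Spearman correlation of 0.55, and across the 13349 protein-coding genes 0.70 and 0.58. These are across genes, which are not independent and share the 2 tables' scaling.

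**Figure D1:**
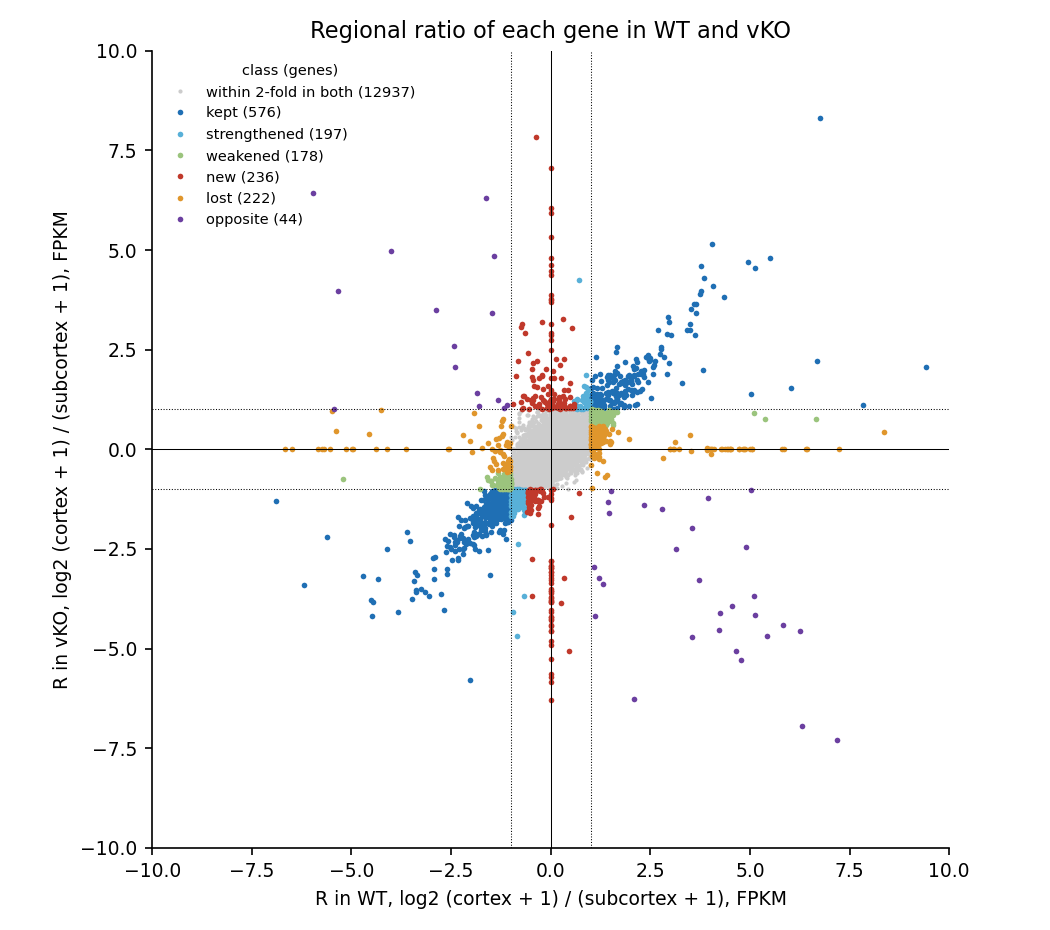
Each point is 1 of the 14390 genes that reached 1 FPKM in any group, with R in WT on the x axis and R in vKO on the y axis (both log2), coloured by class, and dotted lines mark 2-fold. The 576 kept genes run along the diagonal, while the new and lost genes lie along the axes, and the 106 of them exactly on an axis are listed at 0 in both tissues of a genotype.

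Cortical identity was kept in vKO. Of 20 transcription factors of the cortex, all above the FPKM limit, 15 were at least 2-fold higher in vKO cortex than in vKO subcortex and 15 in WT, and 14 of them were the same, against 2.60% of all vKO genes. The median R of the list was 2.51 in vKO and 2.64 in WT, and 2.65 and 2.43 with a trend by transcript length and GC content removed, so the order of the genotypes turned. Tbr1, which deep-layer neurons need (chromosome 2, 61802930 to 61814114), stood at 29.0 FPKM in WT cortex and 0.537 in WT subcortex, and at 22.2 and 0.687 in the vKO tissues. Its R was 4.35 in WT and 3.81 in vKO, and its q in the authors' deposited cortex table was 0.0528. Emx1, a factor of cortical progenitors and their neurons, stood at 13.3 and 0.106 FPKM in WT and at 15.3 and 0.113 in vKO, with an R of 3.75 and 3.91. The subcortex values of both genes were low in both genotypes.

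Neurod6, a factor of differentiating cortical excitatory neurons (chromosome 6, 55677822 to 55681263), was higher in vKO than in WT cortex. It stood at 98.3 FPKM in WT cortex and 6.61 in WT subcortex, and at 168 and 6.08 in vKO, and R moved from 3.77 to 4.61. The authors' deposited table has it as risen in vKO cortex (q = 0.000806). Fezf2 (R 3.59 in WT and 3.65 in vKO), Mef2c (3.65 and 3.64) and Zbtb18 (2.96 and 3.19) also kept their place. Lmo4 and Id2, regulators that bind other transcription factors, had an R of 1.54 and 1.53 in vKO after 1.30 and 1.01 in WT.

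Emx2 and Cux2 were the cortical factors with a new or lost difference. A further 4 of the 20, among them Cux1 (R 0.07 in WT and 0.17 in vKO), had no 2-fold difference in either genotype. The lowest R of the list was -0.76 in WT and -0.51 in vKO. Emx2, which patterns the caudal and medial cortex (chromosome 19, 59458372 to 59465357), stood at 2.59 FPKM in WT cortex and 2.18 in WT subcortex, and at 4.79 and 1.39 in vKO. Its R of 0.22 in WT became 1.30 in vKO, so it counts as newly cortical, and the authors' deposited table has it as risen in vKO cortex (q = 0.000806). Cux2, a factor of upper-layer neurons, stood at 20.2 and 9.88 FPKM in WT and at 14.7 and 10.8 in vKO, and R went from 1.02 to 0.44. With a trend by transcript length and GC content removed, Cux2 had an R of 0.61 in WT and 0.68 in vKO, so its loss is not seen there. Emx2 had 0.25 and 1.36.

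Genes of cortical layers were less uniform. Of 24 such genes, 12 were at least 2-fold higher in vKO cortex and 14 in WT cortex, beside 2.60% and 3.29% of all genes. Of the 24, 11 were kept. The median R was 0.98 in vKO and 1.18 in WT, and R was below its WT value in 19 of 24, beside 7438 of all 14068 genes. After removal of the trend by length and GC these medians were 0.97 and 0.995. Slc17a7, which loads glutamate into vesicles of cortical neurons, stood at 18.5 and 0.641 FPKM in WT and at 15.1 and 1.25 in vKO, with an R of 3.63 and 2.87. Nfib, Pou3f3, Crym, Sox5 and Nr4a2 were kept as well, with an R in vKO of 1.46, 1.44, 2.32, 1.5 and 1.23.

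Reln and Nfia were the layer genes that lost their regional difference. Reln encodes reelin, which Cajal-Retzius cells at the surface of the cortex secrete to guide migrating neurons (chromosome 5, 21884454 to 22344702). It stood at 50.5 FPKM in WT cortex, 22.2 in WT subcortex, 26.4 in vKO cortex and 28.9 in vKO subcortex. R went from 1.21 to -0.09, and the authors' deposited table has Reln as fallen in vKO cortex (q = 0.000806) and not as changed in subcortex (q = 0.727). Trp73, another gene of Cajal-Retzius cells, stood at 1.99 and 0.381 FPKM in WT and at 1.18 and 0.364 in vKO, and its R of 1.16 became 0.69. In whole tissue, fewer cells of a type and less RNA per cell cannot be told apart. Nfia, a factor of progenitors and deep layers, went from an R of 1.22 to 0.53. All 3 have long transcripts (11699, 5042 and 9526 bases). With the trend by length and GC removed, R of Reln was 0.78 in WT and 0.05 in vKO, of Trp73 1.04 and 0.82, and of Nfia 0.97 and 0.50, so that neither Reln nor Nfia was past 2-fold in WT and neither counts as lost.

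Progenitor genes stood further towards cortex in vKO. Of 7 genes of intermediate progenitors, the dividing precursors of cortical neurons, R was above its WT value in 7, beside 6630 of all 14068 genes. Their median R was 0.67 in vKO and 0.08 in WT, and 0.82 and 0.37 with the trend by length and GC removed. Neurog2 stood at 4.03 and 1.51 FPKM in WT and at 6.35 and 1.52 in vKO (R 1.05 and 1.57), and Eomes at 5.48 and 2.48 and at 8.18 and 3.45 (R 0.95 and 1.08). Cell cycle genes moved the same way in 14 of 15, with a median R of 0.70 in vKO and 0.26 in WT, and of 0.70 and 0.33 with that trend removed. Ube2c, which the mitotic exit machinery uses to degrade cyclins, stood at 8.67 and 7.52 FPKM in WT and at 14.9 and 7.11 in vKO, and its R of 0.24 became 1.01. Top2a, a topoisomerase of dividing cells, had an R of 0.52 and 0.95. The authors' deposited table has 7 of the 15 cell cycle genes and 4 of the 7 progenitor genes as risen in vKO cortex, beside 8.25% of all genes tested there. Those calls use the same vKO cortex libraries as the vKO regional ratio.

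Markers of the forebrain's inhibitory neurons and of the striatum gave a mixed list. The cortex-labelled tissue was higher in Dlx1 and Lhx6, factors of inhibitory neurons born in the ventral telencephalon, and in the striatal genes Ppp1r1b and Drd1a in both genotypes. Dlx1 stood at 26.8 and 4.72 FPKM in WT and at 24.0 and 5.45 in vKO (R 2.34 and 1.98), and Ppp1r1b, a phosphatase regulator of striatal neurons, at 15.4 and 1.52 and at 14.3 and 1.75 (R 2.76 and 2.51). Of 18 striatal genes, 8 were at least 2-fold higher in cortex in either genotype, beside 2.60% of all genes in vKO and 3.29% in WT. On the subcortical side 2 were past 2-fold in vKO and 0 in WT, beside 4.88% and 3.96% of all genes. R was lower in vKO in 16 of the 18, beside 7438 of all 14068 genes. The striatal median was 0.84 in WT and 0.28 in vKO, and 0.91 and 0.25 with the trend by length and GC removed. Of 16 inhibitory neuron genes, 8 were past 2-fold on the cortical side in each genotype. On the subcortical side 3 were in vKO and 1 in WT, and R was lower in vKO in 15. The labels do not say where the cut between cortex and subcortex was made.

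Slc32a1, which loads GABA into vesicles, was newly higher in subcortex. It stood at 14.3 FPKM in WT cortex, 22.7 in WT subcortex, 10.3 in vKO cortex and 23.6 in vKO subcortex, with an R of -0.58 in WT and -1.09 in vKO. The authors' deposited table has it as fallen in vKO cortex (q = 0.0238), and its subcortex values lay close together. After removal of the length and GC trend, its R in vKO was -0.95, just under 2-fold.

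**Figure D2:**
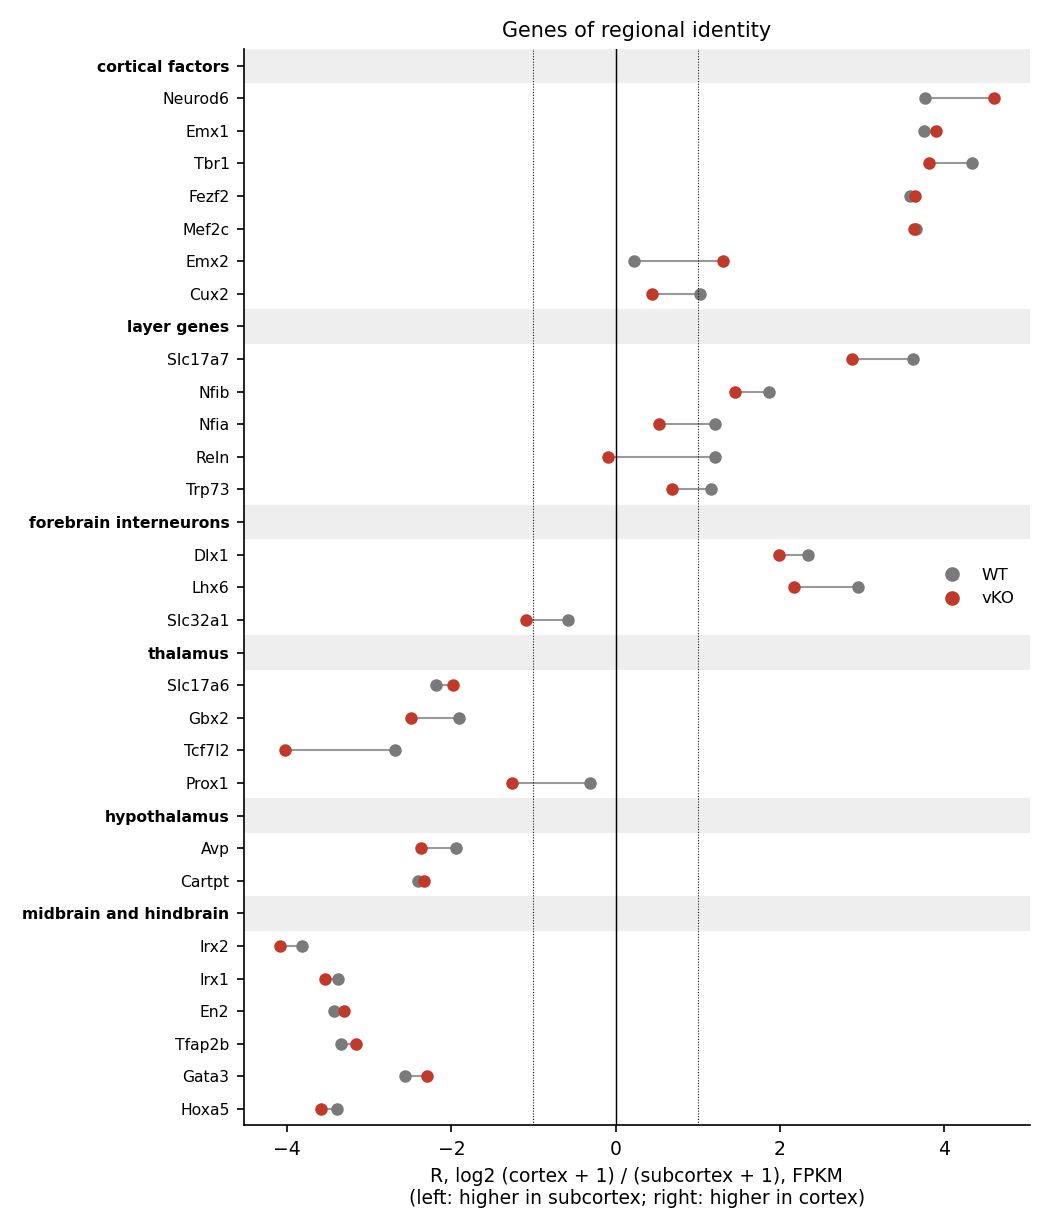
Each row is 1 gene of a region or cell type, with R in WT as a grey and R in vKO as a red point on a log2 axis, where positive values are higher in cortex and dotted lines mark 2-fold. Cortical factors such as Tbr1 (4.35 and 3.81) and hindbrain factors such as Irx2 (-3.82 and -4.09) stay on their sides, while Reln (1.21 and -0.09) leaves the cortical side and Tcf7l2 (-2.68 and -4.03) moves further to the subcortical one.

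Midbrain and hindbrain identity was kept with few exceptions. Of 28 transcription factors, 25 were above the FPKM limit in vKO, and 25 of these were at least 2-fold higher in vKO subcortex, against 4.88% of all vKO genes. A gene at 0 in cortex enters only at 1 FPKM or more in subcortex, which with 1 added is already 2-fold. For factors near 0 in cortex the count therefore follows from the limit. Summed over the 28, cortex held 6.86 FPKM in WT and 6.49 in vKO, and subcortex 144.6 and 145.3. Of the 25, 23 had been at least 2-fold higher in subcortex in WT. Gata2 and Nkx6-1 had grown past 2-fold, from an R of -0.91 to -1.03 and from -0.77 to -1.15. After removal of the trend, Gata2 (-0.99 and -0.90) and Nkx6-1 (-0.83 and just under 2-fold) were past 2-fold in neither genotype. The median R was -2.14 in vKO and -1.95 in WT, and -2.09 and -2.19 with the trend removed, so the order of the genotypes turned. The authors' deposited Cuffdiff tables tested 1 of the 25 in cortex and 24 in subcortex and have 0 as changed (2 at an unadjusted p under 0.05, both in subcortex), which is near the share of all genes called in subcortex. Irx2 (chromosome 13, 72628820 to 72634198) stood at 0.430 FPKM in WT cortex and 19.4 in WT subcortex, and at 0.182 and 19.2 in vKO, with an R of -3.82 and -4.09. En2, which the midbrain-hindbrain border needs, had an R of -3.43 and -3.31, Tfap2b of -3.35 and -3.16, and Irx1 of -3.38 and -3.54.

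Hox genes set the position of hindbrain and spinal cord segments and are silent in the forebrain. Of 20 Hox genes, 13 passed the limit in vKO, and 12 of them were at least 2-fold higher in subcortex in both genotypes, against 4.88% of all genes in vKO and 3.96% in WT. The exception was Hoxd4, with an R of -0.93 in WT and -0.97 in vKO. Hoxa5 (chromosome 6, 52201754 to 52204587) stood at 0.0418 FPKM in WT cortex, 9.93 in WT subcortex, 0.0271 in vKO cortex and 11.4 in vKO subcortex (R -3.39 and -3.59). Most of the others above the limit were listed at 0 in both cortices, among them Hoxb5 (3.53 FPKM in WT and 4.59 in vKO subcortex) and Hoxa2 (3.31 and 3.91). Genes at 0 in vKO cortex pass the limit only through subcortex, where 1 FPKM with 1 added is already 2-fold. Their part of the count of 12 was therefore set by the limit in vKO. Summed over the 20 genes, cortex held 0.0862 FPKM in WT and 0.458 in vKO, and subcortex 41.1 and 46.5.

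Thalamic genes stood further from cortex in vKO than in WT. Of 14, 11 were at least 2-fold higher in vKO subcortex and 7 in WT, beside 4.88% and 3.96% of all genes. R was lower in vKO in 13, beside 7438 of all 14068 genes, and the median went from -1.01 to -1.46. Tcf7l2, a transcription factor of the thalamus and a partner of beta-catenin (chromosome 19, 55741820 to 55933654), stood at 4.71 FPKM in WT cortex and 37.0 in WT subcortex, and at 1.07 and 33.2 in vKO. Its R of -2.68 became -4.03. Prox1 (chromosome 1, 190118035 to 190170714), present in the thalamus and in the dentate gyrus of the hippocampus, stood at 5.13 and 6.86 FPKM in WT and at 2.38 and 7.26 in vKO, so that a new difference arose (R -0.31 and -1.27). In both genes the cortex value was lower in vKO while the subcortex values lay close together.

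The authors' deposited table has 6 of the 14 thalamic genes as fallen in vKO cortex, among them Tcf7l2, Prox1 and Lef1, beside 11.2% of all genes tested there. Slc17a6, the vesicular glutamate transporter of the thalamus and brainstem, was kept at an R of -2.18 and -1.99, and Calb2 at -1.54 and -1.57. Gbx2, which the thalamus needs for its connections, had an R of -1.91 and -2.50. With the trend by length and GC removed, Tcf7l2 had an R of -2.73 in WT and -4.07 in vKO and Prox1 of -0.56 and -1.22, while the medians of the list were -1.22 and -1.47, a smaller shift than above. Genes of the hippocampus and medial cortical edge were lower in R in 9 of 9, with a median of -0.05 in WT and -0.37 in vKO, and of -0.11 and -0.18 with the trend removed. The authors' deposited table has 7 of these 9 as fallen in vKO cortex, beside 11.2% of all genes, and Prox1, Lef1 and Lhx9 stand in both lists. Zbtb20, a hippocampal factor, had an R of 1.85 and 1.06, and Lhx9, shared with the thalamus list, of -2.60 and -3.01.

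Of 20 hypothalamic and preoptic genes above the limit, 11 were at least 2-fold higher in vKO subcortex and 9 in WT subcortex, beside 4.88% and 3.96% of all genes. Members near 0 in cortex enter only through subcortex, so part of these counts follows from the limit. Pmch, the precursor of melanin-concentrating hormone, stood at 1.14 FPKM in WT cortex, 13.7 in WT subcortex, 0.305 in vKO cortex and 15.3 in vKO subcortex (R -2.74 and -3.63). Avp, the vasopressin precursor, stood at 1.81 and 10.1 FPKM in WT and at 4.18 and 26.3 in vKO, with an R of -1.95 and -2.37, and the authors' deposited table has it as risen in vKO subcortex (q = 0.0104). Cartpt had an R of -2.41 and -2.33. Of the 20 genes, 12 kept their difference, of which Lhx6, Lhx8 and Npy stood on the cortical side, Oxt and Crh had grown past 2-fold, and 6, among them the peptide gene Agrp (-0.09 and -0.55), had no 2-fold difference in either genotype.

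Neurons of the brainstem mostly kept their side, and most glial genes had no 2-fold difference in either genotype. Of 12 genes of monoamine and cholinergic neurons, 10 were at least 2-fold higher in vKO subcortex and 9 in WT, beside 4.88% and 3.96% of all genes. Those near 0 in cortex pass the FPKM limit only through subcortex, so their part of the count follows from the limit. Ddc, which makes dopamine and serotonin, stood at 1.09 and 8.90 FPKM in WT and at 0.737 and 9.81 in vKO (R -2.21 and -2.62). Mbp and Cnp, genes of oligodendrocytes that make myelin, had an R of -1.45 and -1.80 and of -1.18 and -1.26, and 6 of 13 genes of that lineage were kept and 7 had no 2-fold difference. Of 18 radial glia and astrocyte genes, Aqp4 and Aldoc were kept on the subcortical side, Fabp7 lost its difference and 15 had none. Fabp7, a fatty acid binding protein of radial glia, stood at 723 and 1598 FPKM in WT and at 965 and 1366 in vKO (R -1.08 and -0.47).

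Choroid plexus genes are a check on pieces of that tissue in a dissection. Ttr, the secreted transthyretin and its defining marker, stood at 504 and 484 FPKM in WT and at 485 and 719 in vKO (R 0.12 and -0.53). The median R of the 13 genes was -0.22 in WT and -0.44 in vKO, and their summed level was 541, 536, 518 and 775 FPKM in WT cortex, WT subcortex, vKO cortex and vKO subcortex. The part of choroid plexus in the new subcortical differences was not tested.

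**Figure D3:**
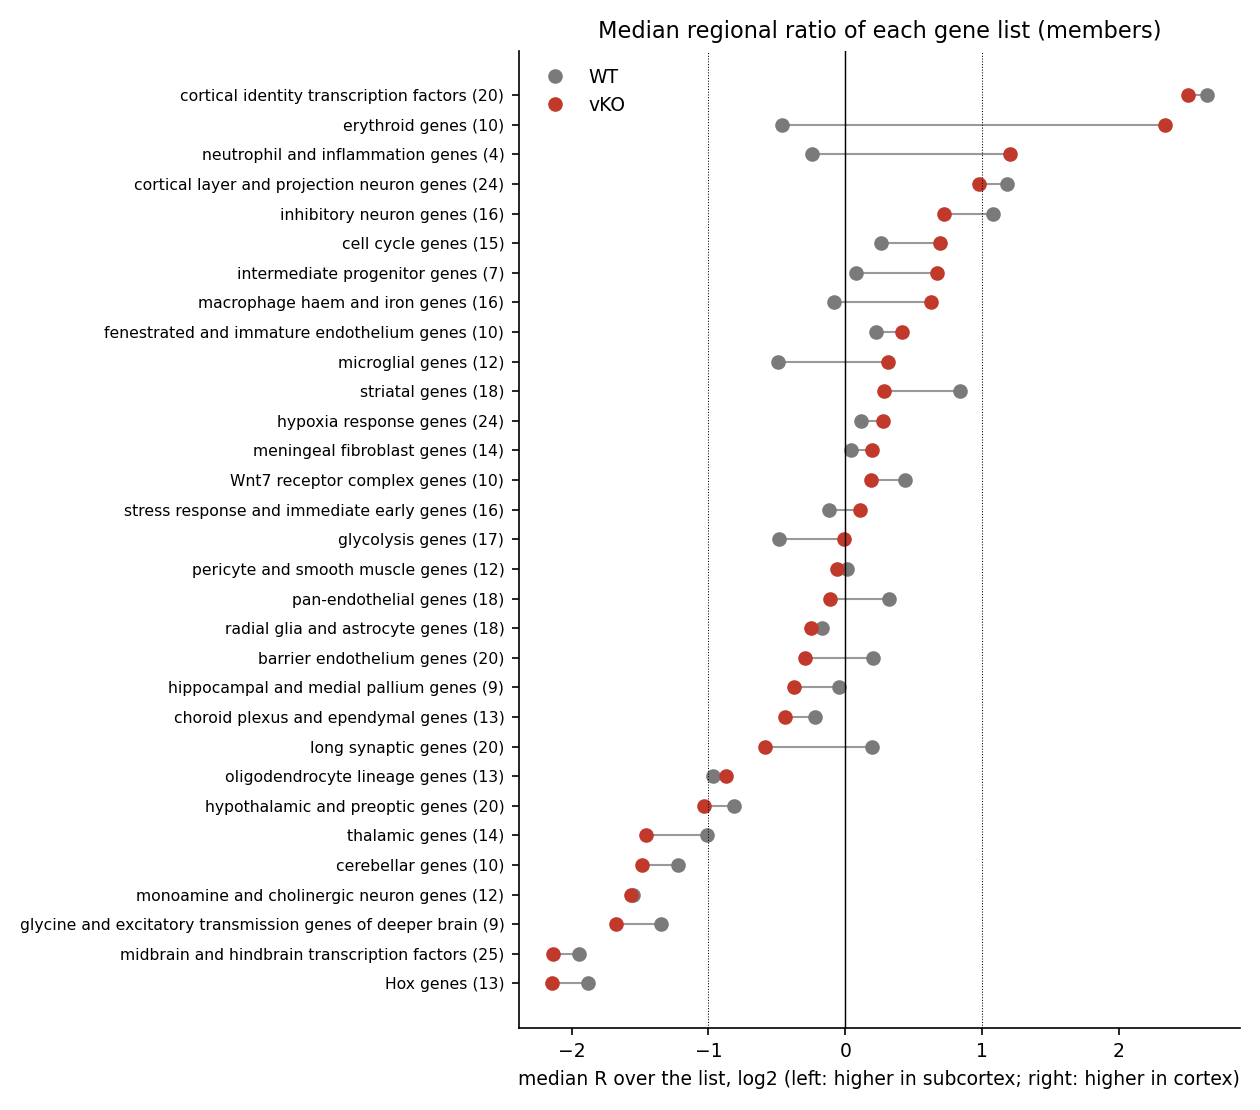
Each row is a gene list with its number of genes above the FPKM limit in vKO, and the grey and red points are the median R in WT and vKO on a log2 axis, where positive values are higher in cortex. Cortical factors stay furthest on the cortical side among the lists of regional identity (2.51 in vKO) and Hox genes and midbrain and hindbrain factors furthest on the subcortical side (-2.15 and -2.14), while erythroid genes move from -0.46 to 2.34 and long synaptic genes from 0.20 to -0.58.

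Of the lists, erythroid genes had the largest shift of the median between the genotypes, from -0.46 to 2.34. Haemoglobin chains are made by erythroid cells, and ALAS2 starts haem synthesis there. The joint entry of Hbb-b1 and Hbb-bs stood at 233 FPKM in WT cortex, 403 in WT subcortex, 4173 in vKO cortex and 482 in vKO subcortex, and R went from -0.72 to 3.14. Alas2 stood at 5.70 and 5.30 FPKM in WT and at 34.6 and 6.60 in vKO (R 0.14 and 2.26). Of 10 erythroid entries above the limit, 8 were at least 2-fold higher in vKO cortex, against 2.60% of all genes, and 0 were in WT. Hba-x (0.167 and 0.277 FPKM in WT) and Hbb-y (0.0607 and 0.360) passed the limit only through vKO. At these WT values, with 1 added, neither could reach 2-fold in WT. The joint entries also overlap the single entries of Hba-a2 and Hbb-bs. The authors' deposited table has 3 of the 10 as risen in vKO cortex, beside 8.25% of all genes tested there. It does not call the joint entry of Hba-a1 and Hba-a2, at 56.0 FPKM in WT cortex and 612.9 in vKO cortex. The summed level of the list was 408 FPKM in WT cortex, 675 in WT subcortex, 6102 in vKO cortex and 797 in vKO subcortex. Globin entries share near-identical copies, so their split between entries is uncertain.

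Genes of macrophages and of haem breakdown followed the same order. Hmox1, the enzyme that breaks down haem (chromosome 8, 75093621 to 75100589), stood at 2.04 FPKM in WT cortex, 3.32 in WT subcortex, 59.7 in vKO cortex and 14.5 in vKO subcortex. Its R of -0.46 became 2.0, and the authors' deposited tables have it as risen in both vKO tissues (q = 0.000806 and 0.0104). Lyz2, the lysozyme of macrophages and neutrophils (chromosome 10, 117277331 to 117282321), stood at 3.14 and 4.86 FPKM in WT and at 47.9 and 10.1 in vKO (R -0.45 and 2.18), and had also risen in both. For these 2 genes, the vKO subcortex stood above the WT subcortex and the vKO cortex stood above both.

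Of 16 macrophage, haem and iron genes, 7 were at least 2-fold higher in vKO cortex and 1 in WT cortex, beside 2.60% and 3.29% of all genes. Among them, Gpnmb (0.289 and 0.222 FPKM in WT) passed the limit only through vKO cortex, at 3.19 FPKM. R was above its WT value in 14 of the 16, beside 6630 of all 14068 genes. Spp1 (R 0.24 and 2.11), Gpnmb (0.09 and 1.80), Cd68 (0.05 and 1.22) and Lgals3 (-0.23 and 1.01), genes of phagocytes, were new, and Lpl, a lipase that cortical neurons also carry, was kept (2.39 and 2.31). Microglial genes had been on the subcortical side in WT, with a median R of -0.49, and stood on the cortical side in vKO, with 0.31. R was above its WT value in 11 of 12 microglial genes, beside 6630 of all 14068 genes. With the trend by length and GC removed, their medians were -0.35 in WT and 0.33 in vKO.

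Tyrobp, a signalling adaptor of microglia and macrophages, stood at 8.59 FPKM in WT cortex, 16.3 in WT subcortex, 27.5 in vKO cortex and 17.1 in vKO subcortex (R -0.80 and 0.69). Its partner Fcer1g had an R of -0.56 and 1.02. After removal of the trend it was -0.30 and 0.93, under 2-fold. S100a9, abundant in neutrophils, stood at 0.908 and 0.541 FPKM in WT and at 17.2 and 2.86 in vKO (R 0.34 and 2.27), while the defining neutrophil genes Ngp, Camp, Ltf, Mpo and Elane were under the limit. The part of blood cells in the differences described here was not tested.

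Genes of the response to low oxygen and of sugar breakdown moved towards cortex, and most had no 2-fold difference in either genotype. HIF factors bind a core of ACGTG in the control regions of such genes, and the upstream bases of 4 genes that moved towards cortex are shown for that reason. Each is the 250 bases before the transcription start in the RefSeq promoter table (GRCm38.p6, the assembly of mm10), 5′ to 3′ on the gene's strand, with ACGTG or its reverse complement CACGT in capitals. CACGTG holds both motifs overlapping and is 1 stretch. The positions are chr11:120948817-120949066 on the plus strand for Slc16a3, chr6:82774455-82774704 on the minus strand for Hk2, chr7:46845554-46845803 on the plus strand for Ldha and chr7:138909507-138909756 on the minus strand for Bnip3.
Slc16a3: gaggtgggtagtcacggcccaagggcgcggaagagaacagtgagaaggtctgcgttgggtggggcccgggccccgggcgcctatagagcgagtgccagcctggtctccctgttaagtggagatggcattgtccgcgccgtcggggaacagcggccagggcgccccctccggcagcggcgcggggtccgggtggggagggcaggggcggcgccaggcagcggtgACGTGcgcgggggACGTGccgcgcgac
Hk2: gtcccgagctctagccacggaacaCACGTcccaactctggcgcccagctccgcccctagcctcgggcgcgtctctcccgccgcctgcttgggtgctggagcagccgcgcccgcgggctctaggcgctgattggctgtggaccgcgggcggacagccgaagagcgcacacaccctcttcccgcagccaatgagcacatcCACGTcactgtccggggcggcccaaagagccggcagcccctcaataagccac
Ldha: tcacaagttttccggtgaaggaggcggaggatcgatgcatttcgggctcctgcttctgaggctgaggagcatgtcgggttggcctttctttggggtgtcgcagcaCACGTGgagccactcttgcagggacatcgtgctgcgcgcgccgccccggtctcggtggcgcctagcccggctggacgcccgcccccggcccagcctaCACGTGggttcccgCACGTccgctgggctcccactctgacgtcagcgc
Bnip3: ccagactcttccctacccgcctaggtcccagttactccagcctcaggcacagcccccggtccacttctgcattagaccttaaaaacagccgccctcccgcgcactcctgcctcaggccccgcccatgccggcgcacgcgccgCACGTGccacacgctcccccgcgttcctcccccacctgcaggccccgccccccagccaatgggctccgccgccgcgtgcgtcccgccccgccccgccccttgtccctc

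Slc16a3, which carries lactate out of cells, has 2 such stretches, the nearer one beginning 14 bases before the start. It stood at 1.5 FPKM in WT cortex, 2.5 in WT subcortex, 6.90 in vKO cortex and 2.42 in vKO subcortex, and R went from -0.45 to 1.24. Hk2, a hexokinase that starts sugar breakdown, has 2 stretches, the nearer 52 bases before the start. It stood at 1.30 and 0.990 FPKM in WT and at 3.28 and 1.01 in vKO (R 0.25 and 1.12). Both count as newly cortical, and in both the vKO subcortex was near the WT subcortex.

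Ldha, which makes lactate, has 3 stretches and stood at 130 and 148 FPKM in WT and at 236 and 145 in vKO (R -0.13 and 0.73). Bnip3, a mitochondrial protein of the low-oxygen response, has 1 stretch and stood at 16.8 and 33.7 FPKM in WT and at 41.5 and 34.1 in vKO (R -0.90 and 0.31). The authors' deposited table has all 4 genes as risen in vKO cortex (q = 0.000806 each). Of 36 hypoxia and glycolysis genes with a promoter in the table, 20 hold the motif in at least 1 listed promoter (55.6%), beside 18.5% of all 27025 genes there. Among these 36, the motif stood in 10 of the 16 whose R was at least 1.5-fold higher in vKO and in 10 of the other 20. A match in this window is a description of letters, not of binding.

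Of 24 hypoxia genes, R was above its WT value in 18, beside 6630 of all 14068 genes, with a median of 0.28 in vKO and 0.11 in WT. Vegfa, the growth factor of blood vessels, stood at 20.7 and 24.6 FPKM in WT and at 33.4 and 19.0 in vKO (R -0.18 and 0.82). Of 17 glycolysis genes, R was above in 13, and the median of -0.48 in WT became -0.01 in vKO. Tpi1 (R -0.83 and 0.01), Gpi1 (-0.81 and -0.01) and Pgk1 (-0.48 and 0.47) show the pattern, in which a level that was lower in cortex than in subcortex in WT was close to or above it in vKO. Aldoa counts as a lost subcortical difference (R -1.08 and -0.28), but not after removal of the trend (-0.82 and -0.22). Gapdh went from an R of -2.44 to 2.58 at 2.69, 19.6, 29.3 and 4.18 FPKM in the 4 groups, but it has many processed copies in the genome and its low values here are uncertain.

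Most vessel genes had no 2-fold regional difference in either genotype, and the medians of their lists differed in direction. The median R of 20 barrier endothelium genes was 0.21 in WT and -0.30 in vKO, and R was below its WT value in 17. For 18 pan-endothelial genes the medians were 0.32 and -0.11, and R was below in 14. Over all 14068 genes, R was below in 7438. The median of fenestrated and immature endothelium genes went the other way, from 0.22 in WT to 0.42 in vKO. With the trend by length and GC removed, it was 0.26 in WT and 0.40 in vKO. R was above its WT value in 6 of these 10 genes, near the share over all genes (6630 of 14068). In the authors' deposited table, 5 of the 10 had risen in vKO cortex, beside 8.25% of all genes tested there. Pericyte and smooth muscle genes had medians of 0.02 and -0.06. Cldn5, the claudin of the barrier's tight junctions, stood at 46.8 FPKM in WT cortex, 42.1 in WT subcortex, 24.6 in vKO cortex and 37.6 in vKO subcortex (R 0.21 and -0.56). Slc2a1, the barrier's glucose transporter, stood at 16.9 and 12.8 FPKM in WT and at 13.6 and 21.9 in vKO (R 0.43 and -0.62). The authors' deposited table has Cldn5 as fallen in vKO cortex (q = 0.000806) and Slc2a1 as risen in vKO subcortex (q = 0.0104).

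Slco1c1, which carries thyroid hormone across the barrier (chromosome 6, 141524368 to 141570177), was the barrier gene with a new cortical difference. It stood at 14.2 and 10.7 FPKM in WT and at 6.70 and 1.82 in vKO (R 0.44 and 1.48). The deposited tables have it as fallen in both vKO tissues (q = 0.000806 and 0.0104). Slc38a5, an amino acid transporter, went the other way, at 6.79 and 4.21 FPKM in WT and at 0.695 and 1.94 in vKO (R 0.63 and -0.78), so the vKO regional ratio of barrier genes had no single direction. Kcne3, a potassium channel subunit of sprouting vessels, was listed at 0 in WT cortex and stood at 0.153 FPKM in WT subcortex, 3.99 in vKO cortex and 0.411 in vKO subcortex (R in vKO 1.85). It passed the FPKM limit only through vKO cortex. Kdr, the main VEGF receptor, had an R of 0.75 and -0.27.

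**Figure D4:**
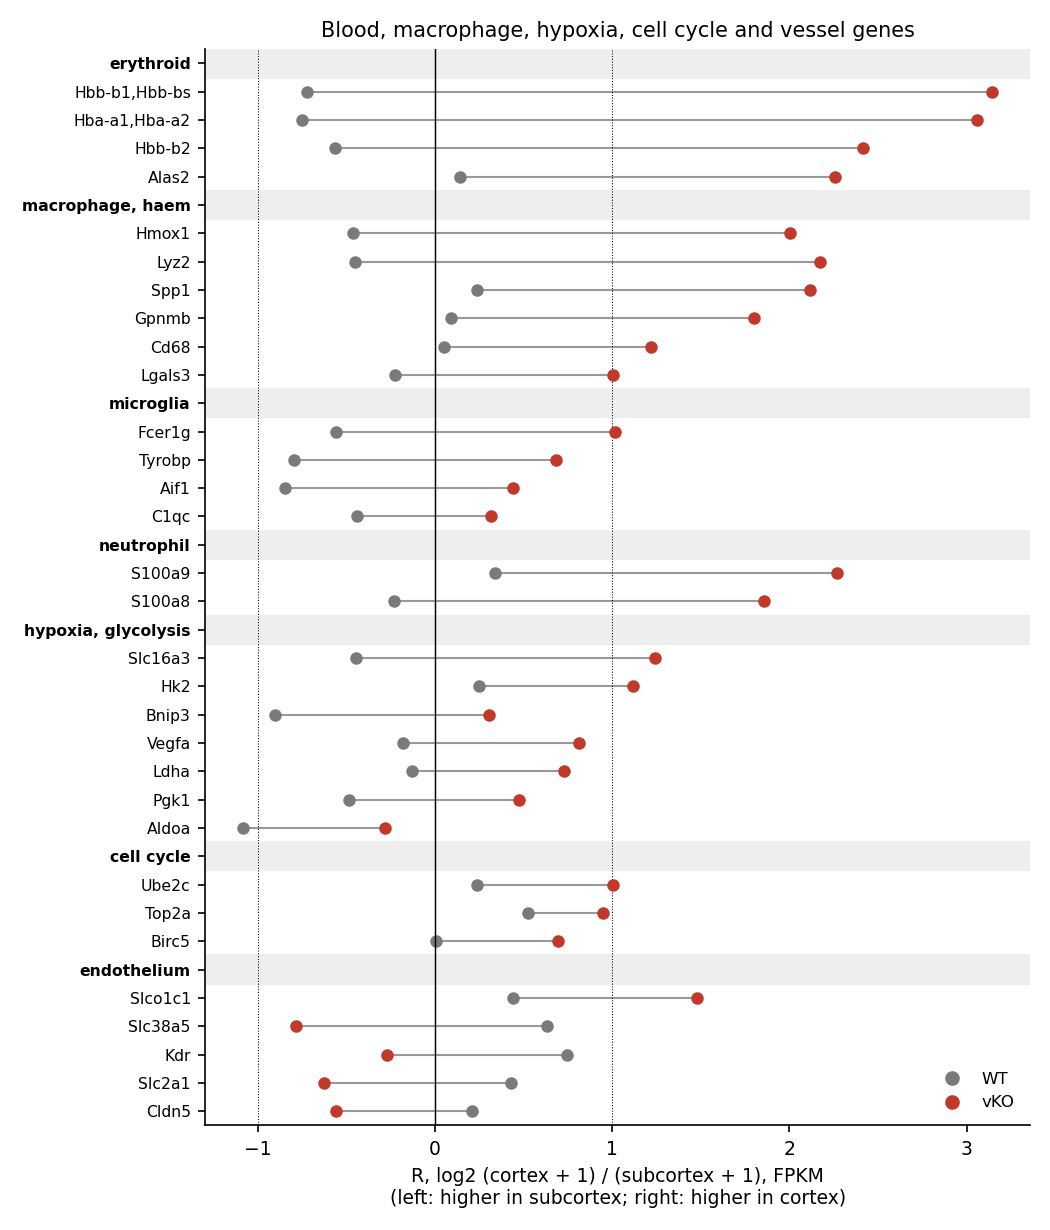
Each row is 1 gene, with R in WT as a grey and R in vKO as a red point on a log2 axis, where positive values are higher in cortex and dotted lines mark 2-fold. Globin, macrophage and neutrophil genes move past the cortical 2-fold line (Hmox1 from -0.46 to 2.0), most hypoxia and glycolysis genes move a shorter way in that direction, and Cldn5, Slc2a1, Kdr and Slc38a5 move to the subcortical side.

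The lost cortical and new subcortical differences held many long genes. The transcript length of the 87 lost cortical protein-coding genes had a median of 7101 bases, and that of the 65 new subcortical ones 5750 bases, beside 1116 bases for the 75 new cortical ones and 1114 bases for the 39 lost subcortical ones. Polr2a, the large subunit of RNA polymerase II (chromosome 11, 69733997 to 69758637), stood at 13.3 FPKM in WT cortex, 5.42 in WT subcortex, 5.87 in vKO cortex and 7.27 in vKO subcortex (R 1.22 and -0.24). Disp2 (R -0.53 and -1.60) and Sema6a, a guidance cue of axons (0.00 and -1.12), were newly higher in subcortex. The deposited table has all 3 as fallen in vKO cortex (q = 0.000806 each). Among 20 long synaptic genes, R was below its WT value in 20, and the authors' deposited table has 17 as fallen in vKO cortex, beside 11.2% of all genes. Ank2, an ankyrin of axons, stood at 121 and 94.3 FPKM in WT and at 62.1 and 98.5 in vKO (R 0.42 and -0.62).

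This dependence on length lay in the WT ratio more than in the vKO ratio. Over the 13936 genes with a known transcript length (99.1% of the vKO genes), the Spearman correlation of R with length was -0.07 in vKO and 0.34 in WT. The log2 ratio of vKO to WT correlated with length at -0.56 in cortex and at 0.00 in subcortex. With the genes cut into 10 equal bins by length, the median R was 0.03 in vKO and -0.29 in WT in the shortest bin, and -0.07 and 0.30 in the longest. The shortest bin held 78 of the 119 new cortical and 35 of the 72 lost subcortical genes, and the longest bin held 47 of the 150 lost cortical and 21 of the 117 new subcortical ones. Its part in the lost and new classes was measured only by removing the trend, as follows.

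**Figure D5:**
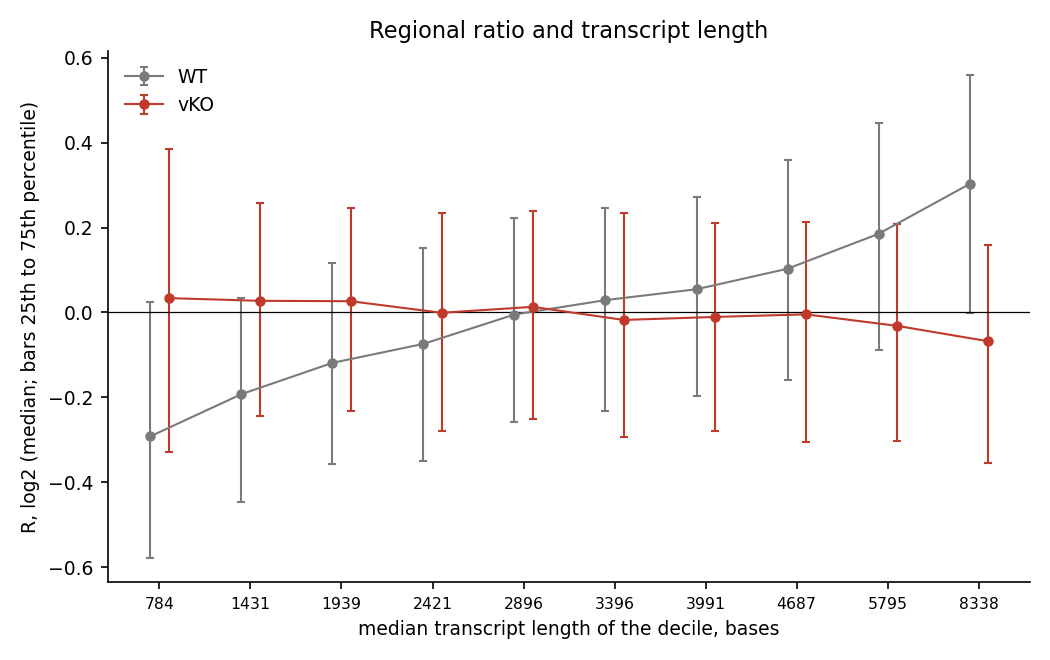
Points are the median R (log2) of 10 equal bins of genes by transcript length, with bars from the 25th to the 75th percentile, in WT (grey) and vKO (red), and the x axis gives the median length of each bin in bases. The WT medians go from -0.29 to 0.30 with length, while the vKO medians stay between 0.03 and -0.07.

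With a trend by transcript length and GC content removed from each genotype's ratios, 594 differences were kept, 165 lost and 196 new, in place of 576, 222 and 236. Lost cortical protein-coding genes went from 87 to 42, new subcortical ones from 65 to 33, lost subcortical ones from 39 to 20 and new cortical ones from 75 to 64. Polr2a (1.03 in WT and -0.13 in vKO) stayed lost and Sema6a (-0.42 and -1.07) stayed new, whereas Disp2 (-0.72 and -1.42) already stood past 1.5-fold in WT. The long synaptic genes went from medians of 0.20 and -0.58 to -0.15 and -0.45, while barrier endothelium genes stayed at 0.24 and -0.29 and macrophage genes at 0.01 and 0.56. Hypoxia genes had 0.04 and 0.34 after it, choroid plexus genes 0.07 and -0.39, and inhibitory neuron genes 0.91 and 0.74 in place of 1.08 and 0.72. Of the subcortical differences that had grown past 2-fold, 129 stood in place of 162, and of the cortical ones 44 in place of 35.

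The lost subcortical differences also held genes of other kinds. H19, an imprinted RNA, stood at 30.1 and 79.0 FPKM in WT and at 90.7 and 75.5 in vKO (R -1.30 and 0.30). Mpc1, a subunit of the mitochondrial pyruvate carrier, stood at 30.8 and 98.3 FPKM in WT and at 45.3 and 41.5 in vKO (R -1.58 and 0.16), and the authors' deposited table has it as fallen in vKO subcortex (q = 0.0104). Hspa1b, a heat shock protein with a near-identical neighbour copy, went from an R of -1.21 to 0.71. Cdr1 stood at 7.18 and 22.2 FPKM in WT and at 4.69 and 5.75 in vKO (R -1.45 and -0.22), a difference that closed from the subcortical side.

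Entries listed at 0 limit the classes. Of the 458 new and lost genes, 106 were listed at 0 in both tissues of a genotype, of which 4 were protein-coding, and the median length of the 106 was 91 bases. Of the 119 new cortical genes 25, of the 117 new subcortical ones 49, of the 150 lost cortical ones 40 and of the 44 opposite ones 31 were listed at 0 in at least 1 group. Zc3h7a, Gfm2 and Camk1d entered the lost cortical class only because they are listed at 0 in WT subcortex, at 13.6, 10.04 and 9.80 FPKM in WT cortex, and Jarid2 and Cmss1 entered the new subcortical class from 0 in the other 3 groups. Such a 0 can be a failed estimate, since these loci are marked in the authors' deposited tables as having too many fragments, and no regional difference is read from them. Sex composition also differed between the genotypes: Xist, made from the inactive X chromosome, stood at 0.0417 and 0.0369 FPKM in WT and at 18.6 and 10.2 in vKO, and the Y-linked Eif2s3y at 30.4 and 27.6 and at 15.8 and 13.3. Its part in the lost and new classes was not tested.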

How the data were processed

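Tissue RNA was sequenced from TruSeq stranded total RNA libraries, per the labels' protocols. Per the submitters' processing notes, the tools were Cuffdiff, Cufflinks 2.2.1 and HISAT2 2.0.1, with the genome build mm10. The 2 deposited tables, 1 per tissue, hold 1 FPKM per gene and group, computed by the authors from the 3 libraries of a group, per the file headers. The columns' letters W and M were read as WT and vKO. Each table's p-value and q-value are from the authors' own test of vKO against WT in that tissue. Genes are written as risen or fallen where this deposited q-value was under 0.05. The depth of the libraries is unknown.

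Rows were joined by symbol, and 4 entries per table with a repeated symbol were left out; 19 genes above the limit carry a date in place of a symbol. Of the 499 genes in 32 lists, 493 had their own entry, 1 an older symbol and 3 a joint entry, and 2 were not found. The members and lists were chosen with earlier results of these data known. Named genes are Reck, up to 4 members of each list (6 for the cortical, midbrain and hindbrain, and Hox lists), lost, new and opposite ones first and then by the highest vKO FPKM, and per direction the 8 kept, lost and new genes with the largest R or difference of R, with an FPKM of at least 2 for lost and new, without predicted, small RNA and sex-linked genes. Agrp, Alas2, Aqp4, Camp, Cartpt, Crh, Crym, Dlx1, Drd1a, Elane, Eomes, Gata2, Gbx2, Gpi1, Gpnmb, Hoxd4, Kdr, Ldha, Lef1, Lgals3, Lhx6, Lhx8, Lpl, Ltf, Mef2c, Mpo, Neurog2, Ngp, Nkx6-1, Oxt, Pgk1, Ppp1r1b, Slc17a7, Slc2a1, Slc38a5, Sox5, Tpi1 and Trp73 were named after their values were seen. Some members of the lists are not reported here by name. Lengths, GC content, biotypes and positions came from GENCODE M21 (mm10), taking for each symbol its longest coding transcript or else its longest one. For the trend, R was centred on its median within each of 100 cells of length and GC content. Python 3.11.15, pandas 2.3.3 and numpy 2.4.6 were used. Alternatives were the pseudocount, the FPKM limit, the scaling, the fold threshold, tested entries only, the length and GC trend and short transcripts.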

Additional observations from a re-analysis of the deposited data

How the results depend on the processing

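No paired analysis was possible because the tables hold 1 value per group, and for the same reason no replicate could be left out. In vKO, 366 genes were higher in cortex and 687 in subcortex, and 576 differences were kept, 222 lost and 236 new. With a pseudocount of 0.1, 1074 genes were higher in vKO subcortex and 871 in WT subcortex, and 911 were kept, 378 lost and 389 new. At 3-fold, 156 and 248 genes were higher in vKO cortex and subcortex and 189 and 181 in WT, with 204 kept, 72 lost and 101 new. With only entries that the authors tested in both tables, 455 were higher in vKO subcortex and 367 in WT subcortex, 144 were lost and 135 new. Without transcripts under 500 bases, 146 were lost and 134 new, and with protein-coding genes only, an alternative chosen after seeing the data, 125 were lost and 142 new; fewer genes enter these 3 settings, and the cause was not tested further. Without scaling, with upper quartile scaling, with an FPKM limit of 5 or none, with the length and GC trend removed and, chosen after seeing the data, without entries marked as lacking data or too deep, each of these counts stayed within 1.5 times. Over the alternatives, recomputed R values of named genes in vKO stayed on their side of the 2-fold line 1577 times and crossed it 23 times, list medians 309 and 7 times, and no value past 2-fold changed sign. Without replicate values and depth, the precision of any single ratio is unknown.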
